A study of Mus musculus with 67 samples.

Results

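The 18 RNA-seq libraries from livers of Sestrin double-knockout (DKO) mice that ate leucine-free food for 1 day were examined here as 1 group. Some genes differed widely among these livers, while 36.9% of 14989 genes deviated more than in wild-type livers on the same food. The members were chosen by sample title alone and are 18 of the 67 libraries of the series. Every member is a mouse liver with the genotype labelled Sesn2 DKO, the diet labelled leucine-free and the time point labelled 24 hours, and the series title calls the mice Sestrin DKO. The same genes were measured in 12 livers of wild-type (WT) mice after 24 hours of leucine-free food and in 8 livers of DKO mice after 24 hours of control food, which are used for comparison. Strain, sex, age and the time of day of tissue collection are not given in the labels used here, and the labels number the mice without linking numbers between groups. The DKO genotype is carried by the DKO control group as well, and the labels describe no promoter, Cre driver or tissue restriction.

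Sestrin2 acts as a sensor of leucine: without bound leucine it restrains mTORC1, the kinase complex that drives translation and growth. A shortage of an amino acid also activates the integrated stress response, in which the kinase GCN2 phosphorylates eIF2α and the transcription factor ATF4 then induces genes for amino acid synthesis, transport and stress signalling. The liver answers other inputs at the same time: glucocorticoids and fasting, cytokines that raise acute phase proteins, and the circadian clock.

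5 genes that report on such inputs served as anchors, and every other gene was set against each of them across the 18 livers. Fgf21 (ENSMUSG00000030827, chr7:45613886-45615490) encodes a hormone that the liver secretes when amino acids are short or during fasting. Saa1 (ENSMUSG00000074115, chr7:46740497-46742980) encodes serum amyloid A, an acute phase protein. Ddit4 (ENSMUSG00000020108, chr10:59949669-59951834), also called REDD1, encodes an inhibitor of mTORC1 that responds to several stresses and to glucocorticoids. Dbp (ENSMUSG00000059824, chr7:45705088-45710203) encodes a transcription factor driven by the clock. Scd1 (ENSMUSG00000037071, chr19:44394455-44407879) encodes stearoyl-CoA desaturase, a lipogenic enzyme. Positions are on GRCm38 as GENCODE M21 annotates the genes, and each interval spans the whole gene with its exons and introns.

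The promoters below belong to genes whose levels carried the results that follow, and they are shown because they hold the letters of an element by which ATF4 and its partners are known to bind, or of one that the glucocorticoid receptor is known to bind. Fgf21 is an anchor, Inhbe had the highest correlation with it, and Atf3, Chac1 and Nupr1 are stress response genes that rose with Ddit4. The sequences are RefSeq windows upstream of the gene start on GRCm38.p6, written 5′ to 3′ on the strand of the gene. Those of Fgf21 and Inhbe are whole 250-base windows, and the others are stretches of 88 or, for Sgk1, 95 bases around the match. The Inhbe, Atf3 and Sgk1 sequences lie inside the gene intervals given with the results, before a start that is not the gene's outermost. Capitals mark the motif, which reads TTGCATCA on this strand and is the reverse complement of TGATGCAA. The windows are chr7:45615491-45615740 on the minus strand for Fgf21, chr10:127351849-127352098 minus for Inhbe, chr1:191183396-191183483 minus for Atf3, chr2:119351009-119351096 plus for Chac1, chr7:126625533-126625620 minus for Nupr1 and chr10:21993661-21993755 plus for Sgk1.
Fgf21: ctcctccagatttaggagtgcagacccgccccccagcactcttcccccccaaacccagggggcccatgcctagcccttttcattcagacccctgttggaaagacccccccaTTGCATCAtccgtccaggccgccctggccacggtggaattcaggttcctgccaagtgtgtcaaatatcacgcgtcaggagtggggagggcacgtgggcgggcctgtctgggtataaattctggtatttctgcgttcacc
Inhbe: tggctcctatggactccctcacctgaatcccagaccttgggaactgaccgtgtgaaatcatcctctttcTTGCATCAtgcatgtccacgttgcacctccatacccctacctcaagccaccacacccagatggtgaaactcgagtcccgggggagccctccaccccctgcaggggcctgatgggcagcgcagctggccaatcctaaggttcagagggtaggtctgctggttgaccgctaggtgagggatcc
Atf3: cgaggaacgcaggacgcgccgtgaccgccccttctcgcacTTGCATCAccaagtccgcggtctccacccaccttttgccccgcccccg
Chac1: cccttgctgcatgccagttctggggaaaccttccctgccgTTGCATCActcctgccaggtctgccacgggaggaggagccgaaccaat
Nupr1: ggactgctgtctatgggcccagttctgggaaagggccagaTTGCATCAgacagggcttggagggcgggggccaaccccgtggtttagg
Sgk1, the gene with the highest correlation with Ddit4 among those named, has in 1 of its 6 annotated promoters the letters of a glucocorticoid response element (AGAACA, any 3 bases, TGT, any base, C, any base), in capitals here.
Sgk1: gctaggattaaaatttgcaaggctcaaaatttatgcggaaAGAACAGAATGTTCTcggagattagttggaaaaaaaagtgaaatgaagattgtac

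The motif TGATGCAA was searched on both strands in the 250 bases before each annotated gene start, and 260 of 32851 windows (0.792%) held it. Among genes tested below that have a promoter entry, 71 of 10332 (0.687%) held it. Of the genes that rose with Fgf21, 3 of the 80 with an entry held it, namely Atf3, Inhbe and Plekhh3. Of those that rose with Ddit4, 5 of 166 held it, namely Atf3, Chac1, Nupr1, Plekhh3 and Zfp672. None of the 71 genes with an entry that fell with Fgf21 held it, and none of the 195 that fell with Ddit4 did. With Saa1 it was held by 1 of 139 genes that rose (0.719%) and 1 of 28 that fell (3.57%). In the list of integrated stress response genes, 8 of 30 with an entry held it: Atf3, Chac1, Pycr1, Vldlr, Slc7a11, Fgf21, Nupr1 and Aars. The glucocorticoid receptor letters stood in 37 windows (0.113%), and Sgk1 was the only holder among the 166 genes that rose with Ddit4. Both motifs were chosen with the correlations known. A match of letters is a description of the sequence and shows no binding, and the absence of a match speaks only of these letters in this window.

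The 18 libraries held 28791476 to 51913541 counts assigned to genes, with a median of 41519523. WT leucine-free libraries held 22814668 to 53352800 counts and DKO control libraries 28705658 to 45951858. Mitochondrially encoded genes took 3.02% to 4.14% of the counts of the 18 libraries, and ribosomal RNA took 0.113% to 0.477%, highest in replicates 16 and 1. Sesn1, 1 of the Sestrin genes, had 3.49, 4.52 and 5.14 CPM (lowest, median and highest) in DKO leucine-free livers and 9.24, 12.9 and 18.4 CPM in WT leucine-free livers, with no overlap. Sesn2 counts were not low in DKO livers, at 14.9, 20.7 and 36.9 CPM against 10.7, 14.0 and 19.6 CPM in WT livers, and such a gene-level count does not tell whether the transcript is whole. Xist, the RNA of the inactive X chromosome, was at 0 in replicate 1 and had 15864 to 36886 counts in the others. Y-linked genes had at most 1 count in any of the 18. Replicate 1 was kept. The 11 hepatocyte markers summed to 62490 CPM or more in each of the 18 libraries, and 10 of 12 pancreas, 5 of 6 adipose and 4 of 6 muscle markers had a median of 0 CPM.

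Fgf21 had 3.82, 30.9 and 143 CPM (lowest, median and highest) in the 18 DKO leucine-free livers, against 1.91, 7.26 and 25.1 CPM in WT leucine-free livers and 0.766, 2.65 and 14.2 CPM in DKO control livers. CPM is the count scaled to library size, here with TMM (trimmed mean of M-values) factors. The highest DKO leucine-free liver therefore had 37.4 times the Fgf21 of the lowest, and the lowest livers lay within the WT range. Ddit4 had 5.41, 59.2 and 257.5 CPM in DKO leucine-free livers, against 4.49, 7.74 and 23.2 CPM in WT leucine-free livers and 13.3, 20.01 and 37.9 CPM in DKO control livers. The median DKO leucine-free liver was above every WT and every DKO control liver in Ddit4, while the lowest was close to the lowest WT liver. Saa1 had 7.63, 49.4 and 6958 CPM in DKO leucine-free livers, against 8.06, 22.1 and 544 CPM in WT leucine-free livers and 16.3, 29.2 and 71.6 CPM in DKO control livers. The highest DKO liver, replicate 3, had 911 times the Saa1 of the lowest and lay far above the rest.

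Dbp and Scd1 had their highest values outside the DKO leucine-free group. Dbp had 1.31, 3.23 and 49.8 CPM in DKO leucine-free livers, against 1.25, 13.8 and 131 CPM in WT leucine-free livers and 2.60, 19.2 and 71.5 CPM in DKO control livers. Most of the 18 livers were therefore near the low end of Dbp, and a few were high. Scd1 had 58.1, 121 and 481 CPM in DKO leucine-free livers, against 66.3, 222 and 1029 CPM in WT leucine-free livers and 2855, 6334 and 16530 CPM in DKO control livers. Every leucine-free liver of both genotypes was below every DKO control liver in Scd1, and the 18 spanned an 8.28-fold range, the narrowest of the 5 anchors. No anchor split the 18 livers into separate clusters: the largest gap between neighbouring livers, leaving out the extremes, was at most 0.219 of the range.

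**Figure D1:**
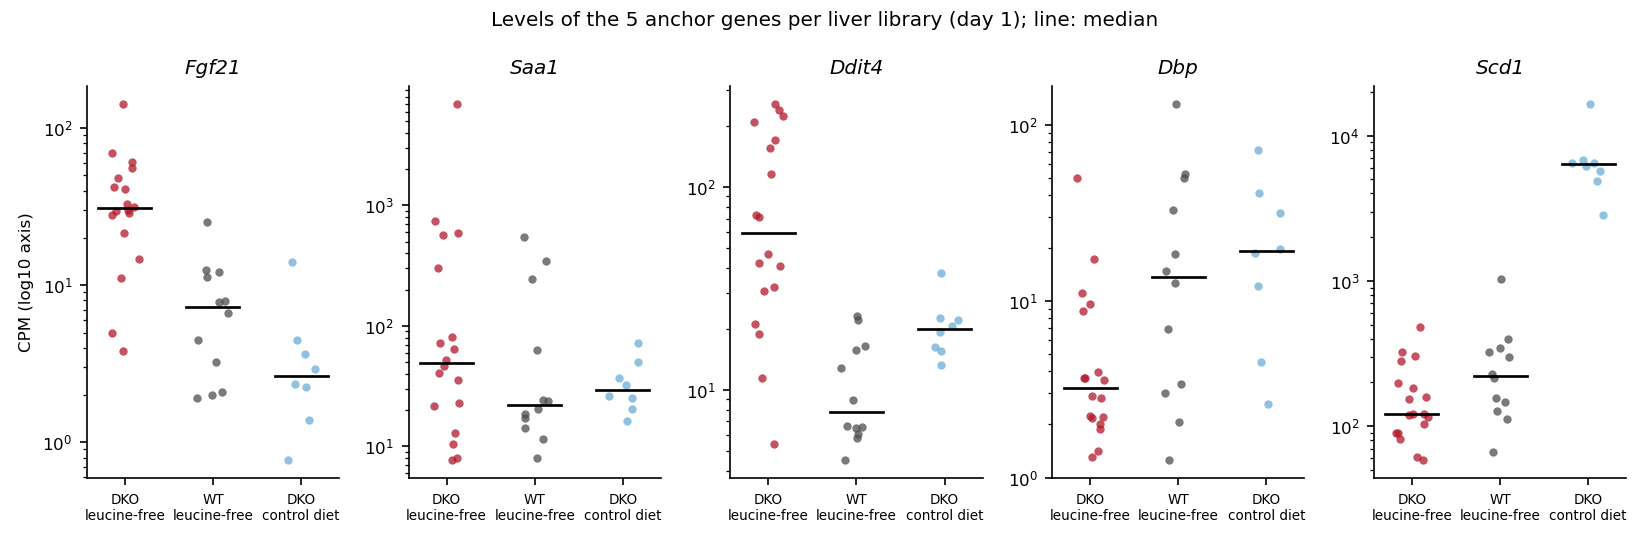
CPM of the 5 anchor genes in every liver library of 3 day 1 groups, on a log10 axis; each point is 1 library and each line a group median. Ddit4 in DKO leucine-free livers runs from 5.41 to 257.5 CPM with a median above all WT and DKO control livers, and Scd1 is lower in both leucine-free groups than in DKO control livers.

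The spread of each anchor was compared between groups by the mean absolute deviation from the group median in log2 CPM, with permutation of the group labels (100000 resamples, 2-sided). These deviations were not scaled for group size. The adjustment covers only the 5 anchors, which were chosen with earlier results of these data known. Ddit4 deviated by 1.36 in DKO leucine-free livers and 0.32 in DKO control livers, a difference of 1.04 (permutation p = 0.00284, adjusted p = 0.0142 over 5 anchors). Against WT leucine-free livers, at 0.70, the difference of 0.66 did not pass adjustment (permutation p = 0.0220, adjusted p = 0.110). Saa1 deviated by 1.95 in DKO leucine-free livers, against 1.47 in WT livers (adjusted p = 0.716) and 0.54 in DKO control livers (adjusted p = 0.0903). Dbp deviated less in DKO leucine-free livers than in WT livers, 0.99 against 1.68, which did not pass either (adjusted p = 0.209). The differences for Fgf21 and Scd1 had adjusted p of 0.525 or more in both comparisons.

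Over all genes, the median deviation was 0.22 in DKO leucine-free livers and 0.25 in WT livers, and 36.9% of 14989 genes deviated more in DKO livers. limma called 0 genes (0%) at an adjusted p under 0.05, and 650 had an unadjusted p under 0.05. Against DKO control livers 58.9% of genes deviated more in DKO leucine-free livers, and limma again called 0 of 15497 genes (0%), with 709 at an unadjusted p under 0.05. Ddit4 was therefore not called in this test over all genes. Both unadjusted counts were below a share of 0.05 of the genes tested, the share that a test gives without any difference. The 0 calls do not show equal spread.

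Fgf21 and Ddit4 rose together across the 18 livers, and none of the other pairs among the 5 anchors passed the test. Their Pearson r was 0.69 (permutation p = 0.00111, adjusted p = 0.0111 over 10 pairs) and their Spearman rho 0.75 (permutation p = 0.00052, adjusted p = 0.0052). In edgeR the slope of Ddit4 on Fgf21 was 0.93 ± 0.22 (SE) log2 units per log2 unit (adjusted p = 0.0435), and the slope of Fgf21 on Ddit4 was 0.43 ± 0.13 with an adjusted p of 0.0741, so that this side of the fit missed the threshold. Without the 2 livers farthest from the Fgf21 median, replicates 6 and 1, r was 0.61 with an adjusted permutation p of 0.117, and without replicate 6 alone it was 0.63 with 0.0697. In the 12 WT leucine-free livers r was -0.26, and the difference of the slopes was 1.08 ± 0.33, which did not pass adjustment over all genes in edgeR (adjusted p = 0.0788). The next largest r in DKO livers were -0.39 for Ddit4 and Dbp and 0.33 for Ddit4 and Scd1, neither of which passed. Saa1 had r of 0.12 with Fgf21 and 0.22 with Ddit4.

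**Figure D2:**
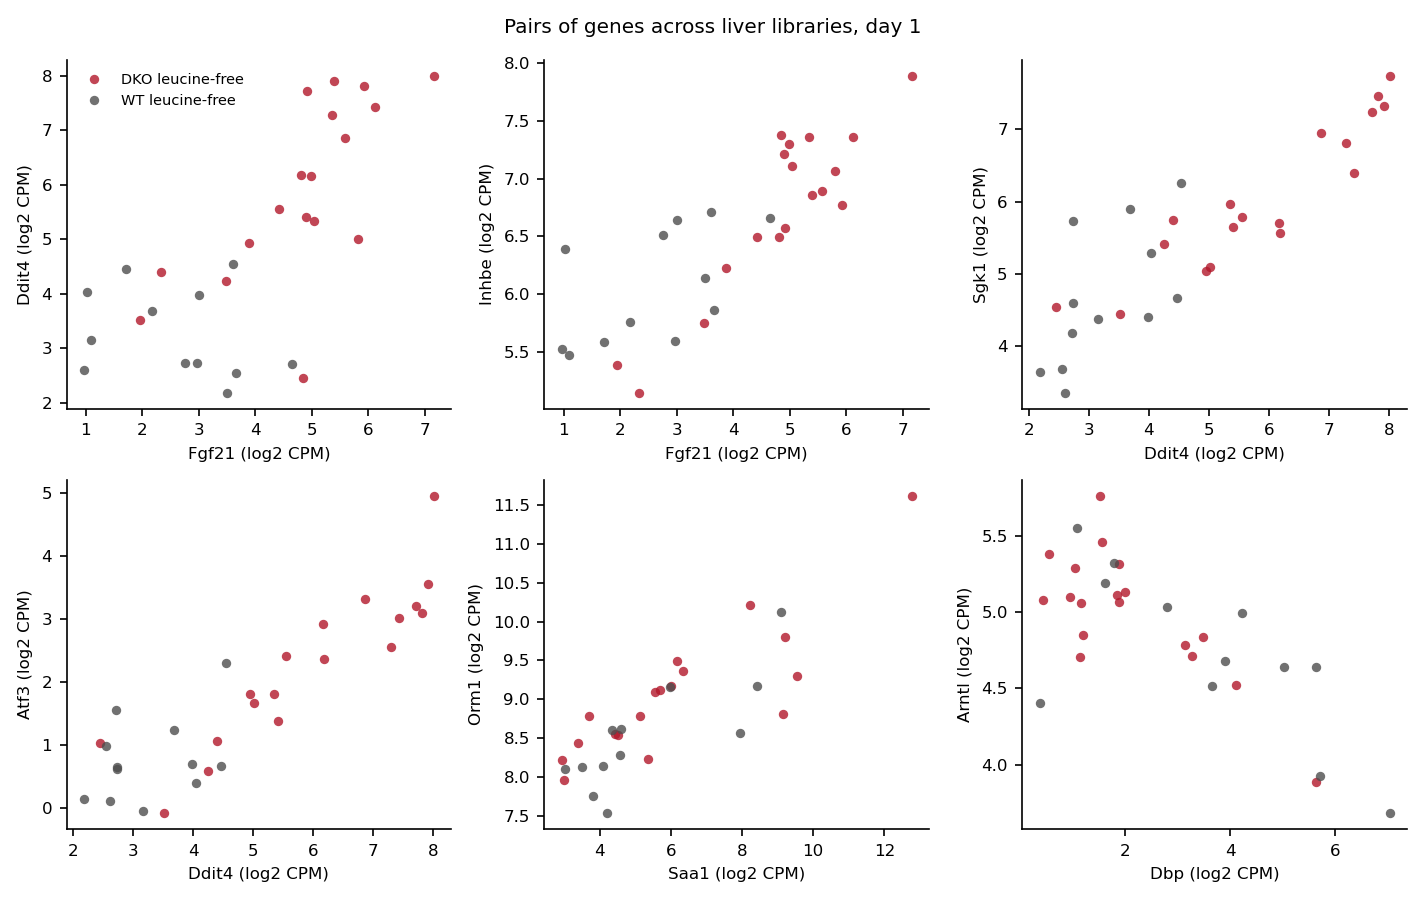
Log2 CPM of 6 pairs of genes, with 1 point per library for DKO leucine-free livers (red, n = 18) and WT leucine-free livers (grey, n = 12). Fgf21 and Ddit4 rise together in DKO livers (r = 0.69) and not in WT livers (r = -0.26), Sgk1 and Atf3 follow Ddit4, and Orm1 follows Saa1 with replicate 3 alone at the right.

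Ddit4 had the most correlates. With an edgeR quasi-likelihood test of each gene's slope on the anchor, 205 of 13700 genes (1.5%) rose with Ddit4 and 261 (1.91%) fell at an adjusted p under 0.05, 466 in all (3.4%). Leaving out single livers gave 331 to 513 calls in total, except without replicate 18, the liver with the least Ddit4, where 234 were called. Without the 2 livers farthest from the Ddit4 median, replicates 18 and 6, the count was 37.

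The genes that rose most closely with Ddit4 included Sgk1 (ENSMUSG00000019970, chr10:21882184-21999903), a kinase gene induced by glucocorticoids, and Atf3 (ENSMUSG00000026628, chr1:191170296-191218039), a stress-induced transcription factor. Sgk1 had 21.7, 54.5 and 215 CPM in DKO leucine-free livers and 10.1, 22.5 and 76.5 CPM in WT leucine-free livers. The highest liver was the same for Sgk1 and Ddit4, and the DKO range started inside the WT range and ran past it. Its r with Ddit4 was 0.92 and its slope 0.57 ± 0.05 (edgeR adjusted p = 1.73e-05). Atf3 had 0.894, 5.20 and 31.0 CPM in DKO livers and 0.918, 1.53 and 4.89 CPM in WT livers, so the median DKO liver exceeded every WT liver. Its r was 0.89 and its slope 0.68 ± 0.08 (edgeR adjusted p = 0.00024). Tmem185b, a membrane protein (r = 0.91), Arl14ep (0.90), Pkdcc, a secreted kinase (0.88), and Gtpbp4, a GTPase of large ribosomal subunit assembly (0.88), completed the 6 named by the rule. The genes that fell most closely with Ddit4 were Fbxo21, an F-box protein of ubiquitin ligases (r = -0.92, slope -0.27 ± 0.03, edgeR adjusted p = 1.73e-05), the kinase Cdk2 (-0.87), the vitamin C transporter Slc23a2 (-0.87), the mitochondrial coenzyme A carrier Slc25a42 (-0.86), the ubiquitin ligase Cblb (-0.86) and choline kinase Chkb (-0.85). Fbxo21 had 54.1, 77.5 and 187 CPM in DKO livers, against 46.8, 118 and 147 CPM in WT livers, with overlapping ranges and a lower DKO median. All 12 named genes were called whichever of the 18 livers was left out. Without the 2 farthest livers, Tmem185b, Slc25a42 and Chkb were no longer called, with r of 0.84, -0.76 and -0.76.

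Of 32 measured members of a list of 35 integrated stress response genes, 10 rose with Ddit4 and 0 fell. Over all genes, 1.5% rose and 1.91% fell. The median r of the 32 was 0.53, against 0.02 over all 13700 genes. An r above 0.5 was found for 18 of the 32 (56.3%), against 7.55% of all genes. Those called were Atf3, its fellow transcription factor Ddit3 (CHOP, r = 0.84), Sesn2 (0.82), the mitochondrial folate enzyme Mthfd2 (0.80), the stress hormone Gdf15 (0.80), the glutathione-degrading enzyme Chac1 (0.75), the pseudokinase Trib3 (0.74), the amino acid transporter Slc7a5 (0.74), the chromatin protein Nupr1 (0.71) and glycyl-tRNA synthetase Gars (0.71). Sesn2 is the gene named in the genotype label, and its gene-level count does not tell whether the transcript is whole. Ddit3 had 8.29, 27.8 and 86.9 CPM in DKO leucine-free livers and 7.81, 12.9 and 92.6 CPM in WT leucine-free livers, so the ranges were alike and the DKO median was higher. Trib3 had 8.84, 28.0 and 82.7 CPM in DKO livers and 4.27, 9.91 and 35.4 CPM in WT livers. Asns, which makes asparagine and is a classical ATF4 target, had r = 0.49 and was not called (edgeR adjusted p = 0.609). The count stayed between 7 and 11 with any 1 liver left out and was 4 without the 2 farthest. In WT livers the list's median r with Ddit4 was 0.03.

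Of 34 measured genes of fatty acid oxidation and targets of PPARα, the transcription factor that switches on fat burning, 12 fell with Ddit4 and 0 rose. Over all genes, 1.91% fell and 1.5% rose. The median r of the 34 was -0.61, and 25 of them (73.5%) had an r below -0.5, against 6.81% of all genes. The called members included Angptl4, a secreted lipase inhibitor (r = -0.85), Ppara itself (-0.75), the electron transfer dehydrogenase Etfdh (-0.69), the acyl-CoA dehydrogenase Acadl (-0.68), the enoyl-CoA isomerase Eci2 (-0.68) and the lipid droplet protein Plin2 (-0.67). Angptl4 had 27.3, 69.3 and 231 CPM in DKO leucine-free livers and 48.2, 97.4 and 207 CPM in WT leucine-free livers, with overlapping ranges. The count was 1 without replicate 18, 5 without replicate 8 and 7 without replicate 12 or 14, and it was 1 without the 2 farthest livers, 1 with Dbp as a second term and 8 with scaling by total counts. The median r was -0.43 without the 2 farthest livers and -0.67 in WT livers.

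Glucocorticoid-responsive genes did not move as 1 group with Ddit4. Of 19 measured, 2 rose and 2 fell, against 1.5% and 1.91% of all genes. The list's median r was -0.07 in DKO livers and 0.34 in WT livers. Sgk1 and Tat, the tyrosine-degrading aminotransferase (r = 0.88), rose. Angptl4 and Pck1, the gluconeogenic PEP carboxykinase (r = -0.78), fell. Tat had 859, 2464 and 4333 CPM in DKO leucine-free livers and 643, 1210 and 2123 CPM in WT leucine-free livers, and the median DKO liver was above every WT liver. Pck1 had 1825, 3434 and 6212 CPM in DKO livers and 1583, 3390 and 4851 CPM in WT livers, with nearly equal medians. These 2 rises and 2 falls were called whichever single liver was left out.

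Ribosome biogenesis genes rose with Ddit4 in part, with 4 of 20 called, against 1.5% of all genes, and a median r of 0.45. The 4 were the box C/D particle protein Nop58 (r = 0.80), the processing factor Rrp12 (0.76), the rRNA methyltransferase Nop2 (0.75) and the nucleolar scaffold Nolc1 (0.70). None of the 4 was called without the 2 farthest livers, and 1 was called with Dbp as a second term. Of 26 genes of the urea cycle and amino acid breakdown, 2 rose, against 1.5% of all genes. These were Tat and Nags (r = 0.86), which makes the activator of the cycle's entry enzyme, and the list's median r was 0.34. Among 11 clock genes that peak near Dbp, 1 rose and 1 fell, against 1.5% and 1.91% of all genes. Per2, a clock repressor, rose (r = 0.75) and Nr1d2, another repressor, fell (-0.76). With Dbp as a second term the total number of genes called with Ddit4 was 186.

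Fgf21 had 96 genes that rose with it (0.701% of 13700) and 92 that fell (0.672%). With scaling by total counts the split was 229 and 52, so the balance of directions depended on the scaling. The TMM factor itself had r of 0.57 with Fgf21, which did not pass (permutation adjusted p = 0.135 over the 20 pairs of a technical measure and an anchor) and was 0.50 without the 2 livers farthest from its median. The total of 188 (1.37%) was sensitive to which livers were included: it was 32 without replicate 13, 34 without 6, 40 without 11, 60 without 1, 77 without 10, 103 without 17, 122 without 12, 124 without 4 and 292 without 18. Without the 2 livers farthest from the Fgf21 median, edgeR called 0 genes, with 1097 at an unadjusted p under 0.05. DESeq2 on all 18 livers called 579.

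Inhbe (ENSMUSG00000047492, chr10:127348857-127354411), which encodes the βE subunit of activins and is made mainly in liver, followed Fgf21 most closely. It had 35.3, 117 and 238 CPM in DKO leucine-free livers, against 44.4, 64.4 and 105 CPM in WT leucine-free livers and 36.7, 57.3 and 156 CPM in DKO control livers. The median DKO leucine-free liver was above every WT liver, and replicate 13 was highest in both Inhbe and Fgf21. Its r was 0.90 (rho 0.71), its slope was 0.52 ± 0.06 (edgeR adjusted p = 0.000823), and r was 0.79 without the 2 farthest livers and 0.57 in WT livers. Its r with Ddit4 was 0.46 and was not called. The others that rose were the tRNA methyltransferase subunit Trmt61a (r = 0.86), the splicing factor Sf3a3 (0.85), Nop2 (0.84), the arginine methyltransferase Prmt6 (0.83) and mitochondrial methionyl-tRNA synthetase Mars2 (0.83). Those that fell were the zinc finger protein Zpr1 (r = -0.89, slope -0.39 ± 0.05, edgeR adjusted p = 0.000703), Zfp871 (-0.87), the Polycomb protein Pcgf3 (-0.87), Crebrf, a regulator of CREB3-type factors (-0.87), and the arginine/serine-rich proteins Pnisr (-0.86) and Rsrp1 (-0.84). Crebrf had 5.74, 13.8 and 27.7 CPM in DKO livers and 10.3, 21.8 and 27.9 CPM in WT livers, so the DKO range reached lower and ended at the same height. None of these 12 was called without the 2 farthest livers.

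Of 31 measured genes of the integrated stress response list, 3 rose with Fgf21, against 0.701% of all genes, and 23 had an r above 0. The 3 that rose were Atf3 (r = 0.81), Gdf15 (0.70) and Ddit3 (0.69), and 0 fell. The median r was 0.40, against 0.03 over all genes, and 12 (38.7%) had an r above 0.5, against 6.82% of all genes. Gdf15 had 5.03, 12.3 and 23.4 CPM in DKO leucine-free livers and 4.88, 10.1 and 31.8 CPM in WT leucine-free livers, the DKO range lying inside the WT range. The median r was 0.15 without the 2 farthest livers, and the count was 0 without replicate 13 and 1 without replicate 1, 6, 10 or 11. Ribosome biogenesis genes had a median r with Fgf21 of 0.44 in DKO livers and 0.53 in WT livers. Of these genes 4 of 20 rose with Fgf21 (Nop2, Nop58 at r = 0.83, Rrp12 at 0.79 and Nolc1 at 0.72), against 0.701% of all genes. That count was 0 without replicate 6 and 2 without replicate 11. Genes of fatty acid oxidation had a median r of -0.26 with Fgf21 in DKO livers and 0.43 in WT livers, and genes of the urea cycle and amino acid breakdown 0.06 in DKO livers and -0.72 in WT livers, with no gene of either list called in DKO livers.

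Saa1 had 173 genes that rose with it (1.26%) and 33 that fell (0.241%). Replicate 3, the liver with 6958 CPM of Saa1, decided most of these calls: without it 1 gene was called, Saa2. The total of 206 (1.5%) was also 91 without replicate 6 and 119 without replicate 5, and 138 to 302 without any other. Saa2 had 3.32, 14.5 and 6400 CPM in DKO leucine-free livers and 2.31, 8.63 and 225 CPM in WT leucine-free livers, and replicate 3 again stood apart. Saa1 and Saa2 are near-identical copies whose reads the counting could have split, so their r of 0.99 (slope 1.10 ± 0.03, edgeR adjusted p = 9.09e-15) is uncertain as a relation between separate genes.

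Acute phase genes rose with Saa1 in 17 of 22 measured, against 1.26% of all genes. Their median r was 0.69, against 0.01 over all genes. Orm1, orosomucoid, had 249, 496 and 3146 CPM in DKO leucine-free livers, against 186, 347 and 1119 CPM in WT leucine-free livers (r = 0.85), and it is also 1 of a family of near copies. Lcn2, an iron-binding antibacterial protein, had 7.79, 81.6 and 2200 CPM in DKO livers, against 8.20, 26.5 and 484 CPM in WT livers (r = 0.78). Hemopexin Hpx (r = 0.81), haptoglobin Hp (0.76) and the fibrinogen chains Fgb (0.71), Fgg (0.68) and Fga (0.64) rose as well. Saa3, the form made outside hepatocytes as well, had 1.39, 4.49 and 81.3 CPM in DKO livers, against 1.88, 3.14 and 14.2 CPM in WT livers (r = 0.85). The median r of the list was 0.51 without the 2 livers farthest from the Saa1 median, replicates 3 and 14, and 0.79 in WT livers.

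Interferon-responsive genes had a median r of 0.53 with Saa1 in DKO livers and 0.28 in WT livers. Of 20 in DKO livers, 4 rose, against 1.26% of all genes. The 4 were the antiviral Oas2 (r = 0.82), Oasl2 (0.78) and Oas1a (0.74) and the RNA-binding Ifit2 (0.75). That count was 0 without replicate 3, 2 without replicate 6 and 7 without replicate 16. Among the genes that fell with Saa1 were the chromatin protein Hp1bp3 (r = -0.86), the sterol transporter Abcg5 (-0.84) and its partner Abcg8 (-0.73), the cytochrome Cyp4f13 (-0.84), the fatty amide hydrolase Faah (-0.83), the electron transfer flavoprotein subunit Etfb (-0.82) and the retinol-binding protein Rbp4 (-0.82). Abcg5 had 68.6, 117 and 167 CPM in DKO leucine-free livers, against 88.5, 137 and 210 CPM in WT leucine-free livers, and its r was 0.20 in WT livers. Abcg5 and Abcg8 overlap on opposite strands, and the sources used here do not state whether reads were counted by strand. Without replicate 3 none of the genes named here other than Saa2 was called, and Hp1bp3 was called in 10 of the 18 fits that left out 1 liver and not under total-count scaling.

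Levels of liver macrophage markers were positively correlated with Saa1. All 15 measured Kupffer cell and macrophage markers had an r above 0.5, against 7.17% of all genes, with a median of 0.64. Of the 15, 2 rose, against 1.26% of all genes: the pore-forming Mpeg1 (r = 0.80) and the macrophage protein Cd5l (0.76). The count was 0 without replicate 3 and 4 without replicate 13 or 15. The macrophage scavenger receptor gene Msr1, 1 of the 6 named by the rule, had r = 0.84 and 8.84, 17.3 and 33.1 CPM in DKO livers. The summed level of the list was 480, 1031 and 1376 CPM in DKO leucine-free livers and 286, 784 and 1315 CPM in WT leucine-free livers, with r of 0.70 with Saa1. Neutrophil markers summed to 2.81, 8.78 and 38.7 CPM in DKO livers, 4 of 9 were measured, and none was called (S100a8, r = 0.65, edgeR adjusted p = 0.0517). Hepatocyte markers summed to 62490, 99930 and 121500 CPM in DKO livers and 88670, 121200 and 142000 CPM in WT livers. Their sum had r of -0.70 with Saa1, but the 11 members did not all fall. The median r of the members was -0.47, with 4 below -0.5 and 3 above 0, and it was -0.31 without the 2 farthest livers. Apolipoprotein Apoa2 was the 1 member called (r = -0.79), and 0.241% of all genes fell. The count was 0 without replicate 2, 3, 5, 6 or 14 and 2 without replicate 12. Endothelial markers had a median r of 0.48 with Saa1 over 15, and their sum had r of 0.53. Of the 15, 1 rose (Clec4g, r = 0.71), against 1.26% of all genes. That count was 0 with scaling by total counts and ran from 0 without replicate 2 to 4 without replicate 15. All 11 measured lymphocyte markers and all 15 stellate cell markers had an r above 0 with Saa1, none was called, and the sums had r of 0.45 for lymphocyte and 0.36 for stellate cell markers. The part of these cell type markers in the association with Saa1 was not tested, and in whole tissue more cells of a type and more RNA per cell cannot be told apart.

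Dbp, which overlaps Sphk2 on the opposite strand, had no called correlate. edgeR called 0 of 13700 genes (0%), with 826 at an unadjusted p under 0.05, and DESeq2 called 24. Clock genes are given here as values, with none called. Genes that peak near Dbp had a median r of 0.43 over 10 measured, against 0.00 over all genes, led by the transcription factor Tef (r = 0.74) and the clock repressors Nr1d1 (0.73) and Nr1d2 (0.71), with edgeR adjusted p of 0.378, 0.378 and 0.522. Tef had 30.8, 56.6 and 110 CPM in DKO leucine-free livers and 33.0, 80.2 and 165 CPM in WT leucine-free livers. Genes that peak opposite to Dbp had a median r of -0.58 over 6, led by Arntl (BMAL1, r = -0.76, edgeR adjusted p = 0.378), Nfil3 (-0.64) and Cry1 (-0.64). Arntl had 14.7, 33.6 and 54.3 CPM in DKO livers and 12.8, 25.2 and 46.9 CPM in WT livers, with overlapping ranges. The medians were 0.20 and -0.25 without the 2 farthest livers, and 0.65 and -0.70 in the 12 WT livers.

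Scd1 had 2 called correlates, both lower where Scd1 was higher: 0 genes rose (0%) and 2 fell (0.0146%), with 2085 genes at an unadjusted p under 0.05 and 332 called by DESeq2. Serpina11, a serine protease inhibitor family member of liver, had 23.5, 32.3 and 54.9 CPM in DKO leucine-free livers, against 22.2, 27.4 and 42.4 CPM in WT leucine-free livers. Its r was -0.81 and its slope -0.35 ± 0.06 (edgeR adjusted p = 0.0396), it overlaps another annotated gene on the same strand, and it was called in 4 of the 18 fits that left out 1 liver. The other was 3930402G23Rik (r = -0.78), which falls outside the naming rule and was named after its values were seen. The count of 2 became 81 without replicate 8 and 6 without replicate 15, and it was 0 in 13 and 1 in 2 of the 18 fits that left out 1 liver.

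The fatty acid synthesis genes, with which Scd1 is usually co-regulated, had a median r of 0.05 with it over 20 measured. None was called, and 5 (25%) had an r above 0.5, against 6.15% of all genes. Acetyl-CoA synthetase Acss2 (r = 0.67), Thrsp, which stimulates lipogenesis (0.59), and the pyruvate kinase Pklr (0.57) were highest. The urea cycle and amino acid breakdown genes stood higher, with a median r of 0.64 over 26 in DKO livers and 0.31 in WT livers. In DKO livers 21 of them (80.8%) were above 0.5, against 6.15% of all genes. Their largest r were those of the urea cycle enzymes Cps1 (0.76), Asl (0.75) and Ass1 (0.75), none of which passed on 18 livers (edgeR adjusted p = 0.0931), and 6 members were called without replicate 8. Cps1 had 2134, 4362 and 7000 CPM in DKO leucine-free livers and 1655, 3228 and 4949 CPM in WT leucine-free livers. Proteasome subunits had a median r of -0.55 over 25 in DKO livers and -0.19 in WT livers, led by Psmd2 (-0.71). Periportal hepatocyte genes had a median r of 0.55 with Scd1 in DKO livers, with 7 of 12 above 0.5, and 0.42 in WT livers. In DKO livers neutrophil markers had -0.60 over 4 and macrophage markers -0.30 over 15, none of them above 0. In WT livers these 2 medians had the opposite sign, 0.18 and 0.14. No member of these 3 lists was called in DKO livers, and their part in the associations with Scd1 was not tested. Scd1 also moved with the share of counts from mitochondrially encoded genes, with r of 0.68 (permutation p = 0.00196, adjusted p = 0.0392 over 20 pairs of a technical measure and an anchor), rho of 0.77 and r of 0.78 without the 2 livers farthest from the median of that share. It was the only such pair that passed, and its part in these associations was not tested. The ribosomal RNA share had r of -0.49 with Fgf21 and -0.41 with Ddit4, neither of which passed.

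**Figure D3:**
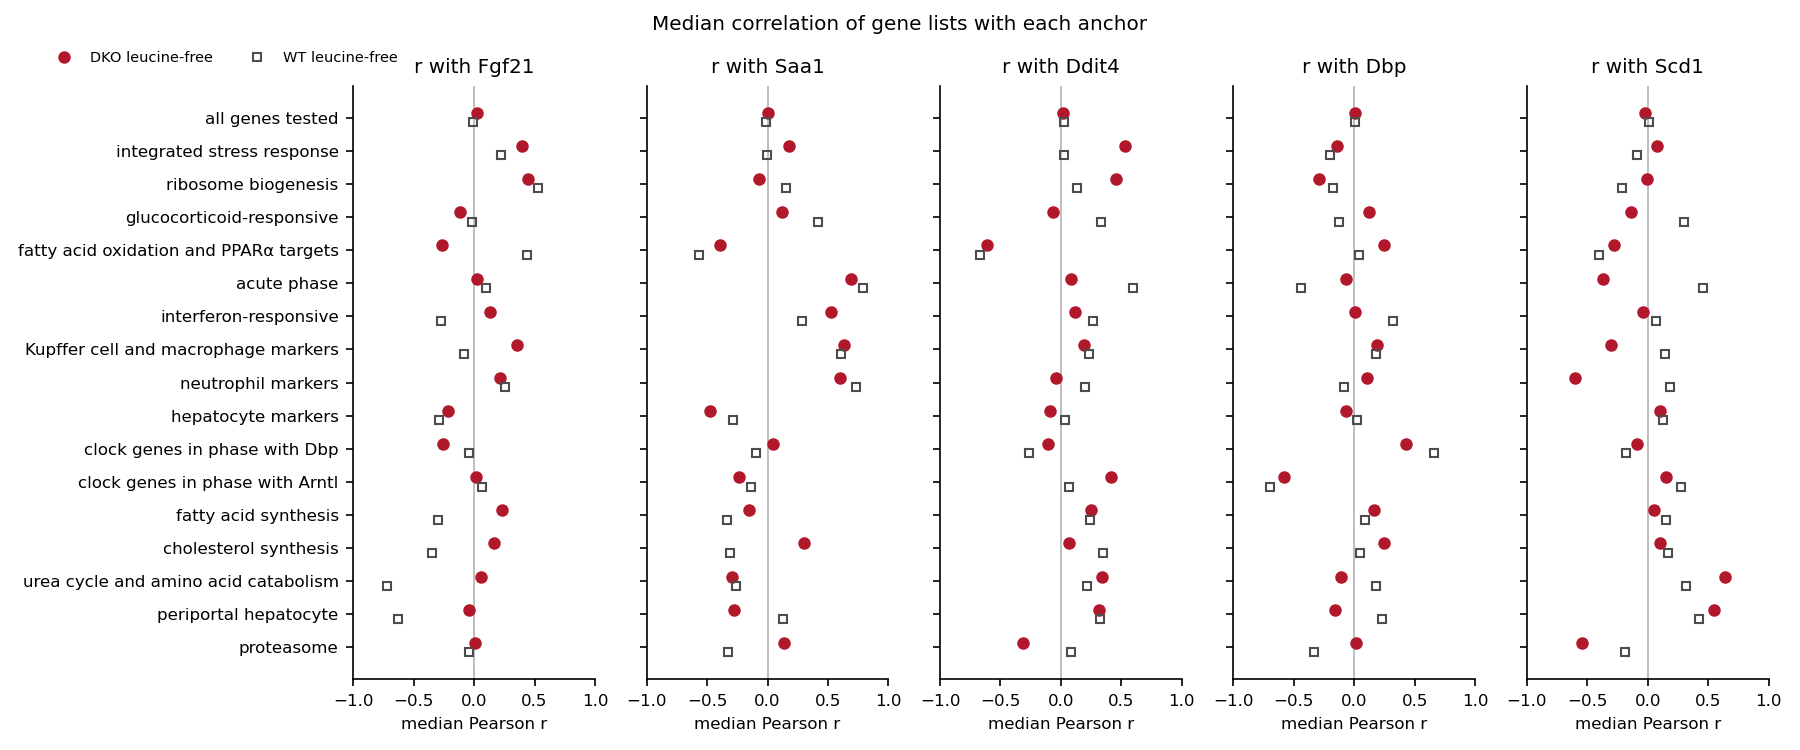
Median Pearson r of gene lists (rows) with each anchor (panels), for DKO leucine-free livers (filled circles, n = 18) and WT leucine-free livers (open squares, n = 12). In DKO livers integrated stress response genes lie at 0.53 with Ddit4 and 0.40 with Fgf21, fatty acid oxidation genes at -0.61 with Ddit4, acute phase genes at 0.69 with Saa1 and urea cycle genes at 0.64 with Scd1.

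**Figure D4:**
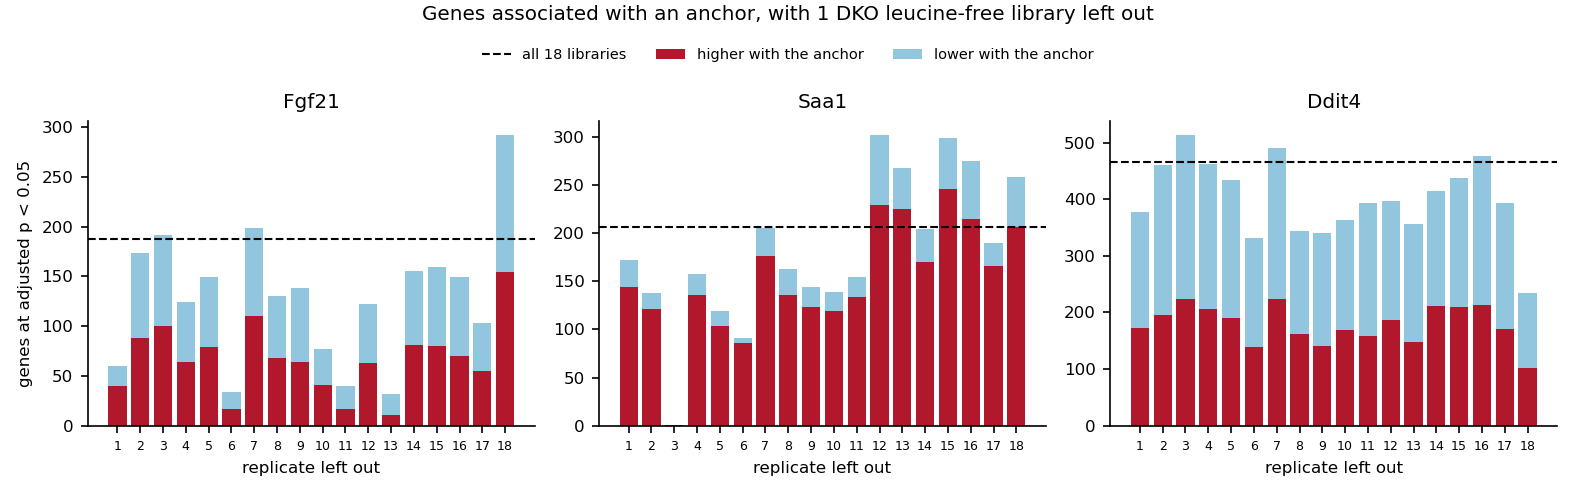
Genes at an adjusted p under 0.05 in edgeR when 1 of the 18 DKO leucine-free livers is left out, for 3 anchors; stacked bars count genes higher and lower with the anchor, and the dashed line is the total with all 18. The Ddit4 total stays at 234 or more, the Saa1 total is 1 without replicate 3, and the Fgf21 total runs from 32 to 292.

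The directions found in the 18 DKO livers were looked up in the 12 WT leucine-free livers, which enter none of the DKO fits. Of 199 genes that rose with Ddit4 and could be tested in WT livers, 180 (90.5%) had a positive slope there, against 67.6% of all genes with a positive slope in DKO livers, and of 256 that fell, 243 (94.9%) had a negative one, against 63.0%. For Saa1 the counts were 161 of 165 (97.6%), against 71.6%, and 31 of 33 (93.9%), against 72.7%. For Fgf21 they were 71 of 95 (74.7%), against 47.2%, and 46 of 92 (50%), against 45.7%, so the genes that fell with Fgf21 in DKO livers were evenly split in WT livers. In the WT livers alone, edgeR called 51 and 18 of 12939 genes higher and lower with Saa1 (0.394% and 0.139%), 2 and 10 with Ddit4 (0.0155% and 0.0773%, together 0.0927%) and 2 and 1 with Dbp (0.0155% and 0.00773%, together 0.0232%). It called 0 with Fgf21 and 0 with Scd1 (0%), with 2682 and 1431 genes at an unadjusted p under 0.05, and no other tool was run in WT livers. For the slope itself, 51 of 14988 genes (0.34%) differed between DKO and WT livers on Fgf21, 7 with a higher slope in DKO livers (0.0467%) and 44 with a lower one (0.294%). On Scd1 3 genes differed (0.02%), all with a lower slope in DKO livers. edgeR called 0 slope differences on Saa1, Ddit4 and Dbp, with 727, 1022 and 353 genes at an unadjusted p under 0.05. The counts on Saa1 and Dbp were below a share of 0.05 of the genes tested.

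Gene lists also varied as blocks within the 18 livers, apart from any anchor. Across all gene pairs the median r was -0.00, and 6.17% of pairs exceeded 0.5. The median r between members was 0.88 for macrophage markers, 0.82 for acute phase genes, 0.82 for cytosolic ribosomal proteins, 0.69 for chaperones of the endoplasmic reticulum, 0.68 for fatty acid oxidation, 0.67 for the urea cycle and amino acid breakdown and 0.61 for the proteasome. It was 0.21 for the integrated stress response and 0.25 for fatty acid synthesis, where 26.6% and 25.2% of the pairs of members exceeded 0.5. In WT leucine-free livers the medians were 0.95 for macrophage markers, 0.78 for acute phase genes, 0.85 for cytosolic ribosomal proteins and 0.86 for the chaperones. There they were 0.68 for fatty acid oxidation, 0.52 for the urea cycle list, 0.71 for the proteasome, 0.02 for the integrated stress response and 0.28 for fatty acid synthesis. Between lists, in the 18 DKO livers, acute phase genes had a median r of 0.55 with macrophage markers, 0.65 with the 4 measured neutrophil markers and -0.45 with hepatocyte markers. Urea cycle genes had -0.43 with proteasome subunits. Acute phase genes had 0.37 with interferon-responsive genes and 0.34 with chaperones of the endoplasmic reticulum, and macrophage markers had 0.59 with endothelial, 0.53 with lymphocyte and 0.42 with stellate cell markers. Genes of 1 list share libraries and scaling, and these medians carry no test.

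**Figure D5:**
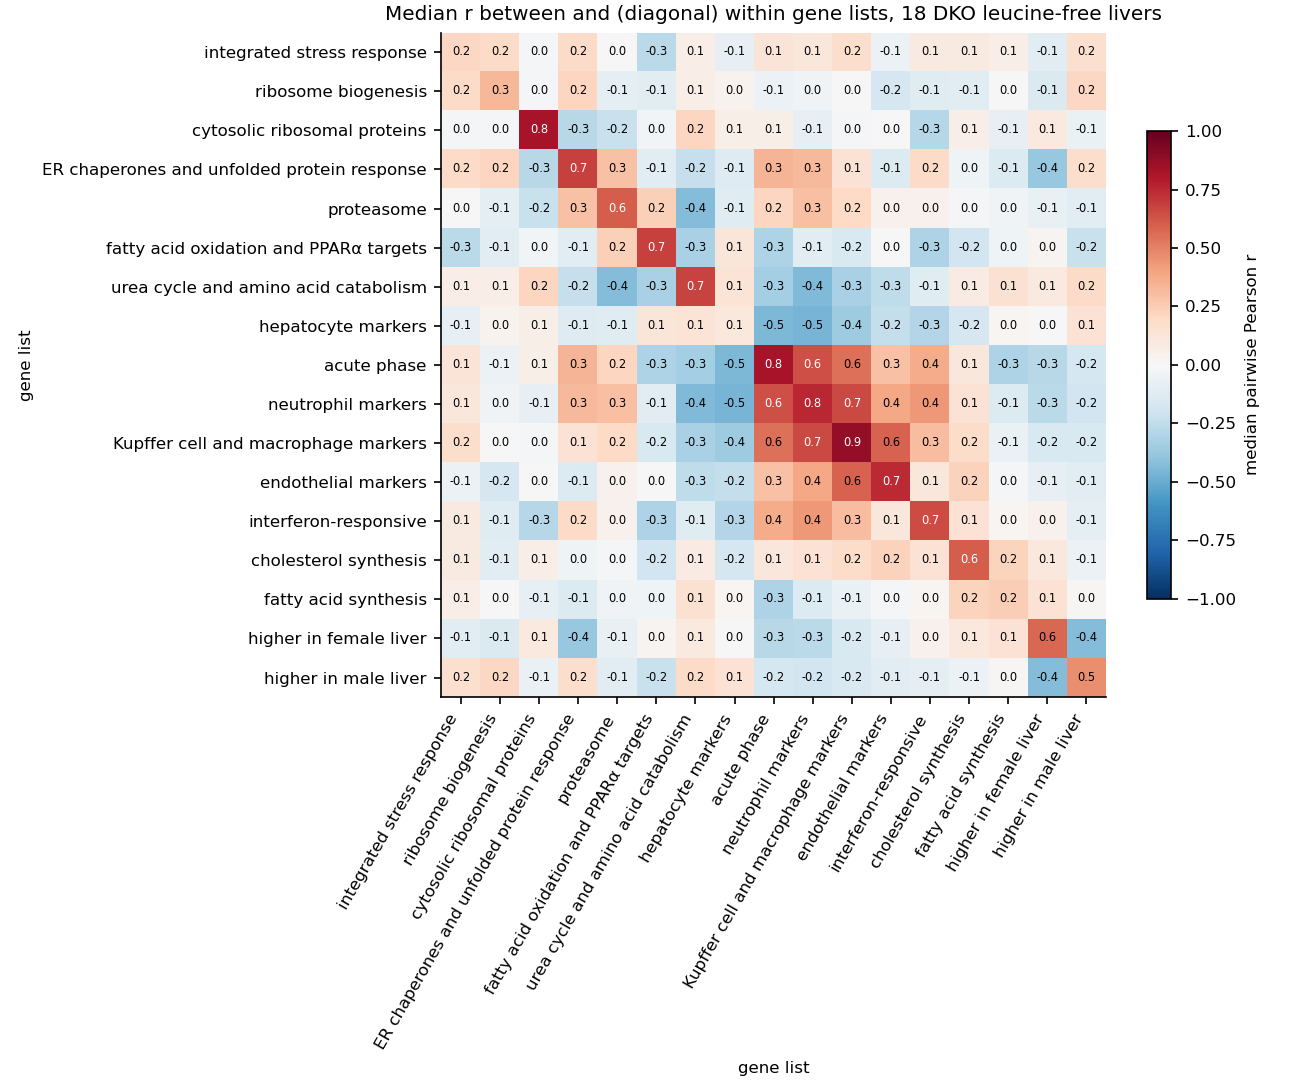
Median Pearson r between the members of gene lists (rows and columns) over the 18 DKO leucine-free livers, with the median within each list on the diagonal. Acute phase genes have positive values with macrophage markers (0.55) and neutrophil markers (0.65), and macrophage markers have them with endothelial markers too (0.59). Hepatocyte markers have a negative value with acute phase genes (-0.45).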

How the data were processed

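Livers were flash frozen and total RNA was made into directional libraries, per the labels' protocols. The deposited values are raw counts per Ensembl gene for each library, 55450 genes, made by the authors. Tools listed in the submitters' processing notes, with no role stated, are featureCounts 2.0.1, STAR 2.7.1a and DESeq2 1.26.0, and the build is GRCm38 (mm10). The sources used here do not state whether reads were counted by strand. Of 55 named genes, 20 overlap another annotated gene, 7 of them on the same strand (GENCODE M21), and their counts are less certain.

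Counts were scaled by TMM factors from all 67 libraries (0.945 to 1.06 in the 18 livers). Correlations use log2 CPM with a prior count of 2. The main test was edgeR 4.0.16's quasi-likelihood test of each gene's slope on an anchor's log2 CPM, after edgeR's expression filter (13700 genes), with Benjamini-Hochberg adjustment over all genes and a threshold of 0.05. The test assumes that each liver is an independent animal, as the mouse numbers imply. Differences in slope were fitted over 18 DKO and 12 WT livers, and spread was tested with limma 3.58.1. DESeq2 1.42.0 and limma's voom were alternatives. Tests were first tried on simulated data. Correlations of anchors used 100000 permutations (SciPy 1.17.1). No 2 of the 18 libraries were copies, with a chi-square per degree of freedom of at least 24.7 between any pair. The labels do not link mouse numbers between DKO and WT livers. Of 12 same-numbered pairs, 5 had a correlation of deviations over 0.1 (range -0.23 to 0.30). Pairs with different numbers were not measured, so these values cannot decide whether the numbers pair livers.

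For each anchor the 6 genes with the highest and the 6 with the lowest r among those called, at a mean of at least 5 CPM, were named, and the 3 members of each list described with the largest absolute r. Others named are the called members of a list, members with a known role and those said to be outside the rule. The 15 most variable genes and up to 5 genes with differing slopes were named by similar rules. The anchors, members and 38 lists were chosen with earlier results of these data known. Alternatives were other scalings, filters and tests, a Dbp term, the replicate block, and libraries left out. The ribosomal RNA settings and, for counts of called genes, leaving out each library were chosen after seeing the data.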

Additional observations from a re-analysis of the deposited data

Results flagged for a closer look

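The slope of 51 genes on Fgf21 differed between DKO and WT leucine-free livers in a direct test of the difference (edgeR adjusted p under 0.05). Named by the rule, in log2 units per log2 unit of Fgf21, were Kdsr, an enzyme of sphingolipid synthesis (-0.14 in DKO livers and 0.31 in WT livers, difference -0.45 ± 0.08 SE), Arl8b, a lysosomal GTPase (-0.09 in DKO livers and 0.13 in WT livers, difference -0.22 ± 0.04), the Golgi protein Tgoln1 (-0.13 in DKO livers and 0.29 in WT livers, difference -0.42 ± 0.08), the transporter Slc17a2 (-0.20 in DKO livers and 0.30 in WT livers, difference -0.50 ± 0.10) and Ergic2, of the early secretory pathway (-0.09 in DKO livers and 0.15 in WT livers, difference -0.24 ± 0.05). None of the 51 calls was made with total-count scaling, with voom or without the 2 farthest livers of each genotype. Members of the gene lists among the 51 were the amino acid transporter Slc38a2 (-0.17 in DKO livers and 0.29 in WT livers), the glutathione synthesis subunit Gclm (-0.11 in DKO livers and 0.15 in WT livers) and the lipogenic regulator Mid1ip1, whose slope was higher in DKO livers (0.25 in DKO livers and -0.34 in WT livers, difference 0.59 ± 0.13).

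The slope of 3 genes on Scd1 differed in the same test. By the rule, Krt18, a keratin, had -0.22 in DKO livers and 0.30 in WT livers, a difference of -0.52 ± 0.09. The others, Miga1 and Ten1, were named after their values were seen, and no gene was called without the 2 farthest livers of each genotype.

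No sample stood apart by Dixon's criterion for any of the 5 anchors in the 8 DKO control livers, the only group of 4 to 10 samples used here.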

How the results depend on the processing

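With no single library left out, 99 recomputed values kept their direction and their side of the threshold, or stayed within 1.5 times for a count, 33 counts moved further, 6 values turned sign, 1 weakened and 1 strengthened. The total of called genes moved as follows. With DESeq2 it was 579 for Fgf21, 626 for Saa1, 818 for Ddit4, 24 for Dbp and 332 for Scd1. With no expression filter it was 429 for Saa1, 14 for Dbp and 265 for Scd1. Without the 2 livers farthest from the anchor's median it was 0 for Fgf21, 1 for Saa1, 37 for Ddit4 and 0 for Scd1. With Dbp as a second term it was 122 for Fgf21, 186 for Ddit4 and 0 for Scd1. With the ribosomal RNA share as a second term it was 76 for Fgf21, 327 for Saa1 and 2 for Dbp, and without the 2 libraries of highest share 120 for Fgf21, 3 for Dbp and 1 for Scd1. Total counts and voom each gave 0 for Scd1. Leaving out single livers gave 32 to 292 for Fgf21, 1 to 302 for Saa1, 234 to 513 for Ddit4, 0 to 2 for Dbp and 0 to 81 for Scd1.

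Slope differences on Fgf21 numbered 0 with total counts, with voom and without the farthest livers, and 143 at a mean CPM of at least 1. Those on Scd1 numbered 1 with voom and 0 without the farthest livers, and those on Ddit4 1 without the farthest livers. With the replicate block, which pairs livers by a number that the labels do not link between groups, they numbered 1 each on Fgf21, Ddit4 and Scd1. The block changed no count of spread calls.

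Among anchor pairs, r without the 2 farthest livers was 0.61 for Fgf21 and Ddit4 and turned sign for Fgf21 and Saa1 (-0.10), Saa1 and Scd1 (0.11) and Dbp and Scd1 (0.10). It was -0.18 for Fgf21 and Scd1 without the livers of highest ribosomal RNA share. With single livers left out r ran from 0.63 to 0.81 for Fgf21 and Ddit4, from -0.054 to 0.18 for Fgf21 and Saa1, from -0.12 to 0.22 for Fgf21 and Scd1, from -0.086 to 0.33 for Saa1 and Dbp, from -0.32 to 0.14 for Saa1 and Scd1 and from -0.26 to 0.079 for Dbp and Scd1. With DKO control in place of WT livers the spread difference was 1.04 for Ddit4, 0.032 for Fgf21 and 0.24 for Scd1. The causes of these shifts were not tested.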

Other observations

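Of the 15 genes that varied most among the 18 DKO leucine-free livers, 5 belong to a list of genes higher in female than in male mouse liver, among them Sult2a1, Cyp3a41a, Hao2 and Cyp3a44. Sult2a1, a sulfotransferase of bile acids and steroids, had an SD of 3.36 in log2 CPM and 0, 51.2 and 312 CPM (lowest, median and highest). Cyp3a41a, a female-biased cytochrome, had an SD of 2.86 and 0.311, 180 and 333 CPM. Beside them, Cyp3a16, Sult2a2, Cyp3a41b, Mup7, Sult3a2, Hamp2, Hao2 and Cyp3a44 had SDs of 1.99 to 3.10. Most of these belong to families of near copies, whose reads the counting could have split.

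The list of 15 genes higher in female liver had a median SD of 1.64 in DKO leucine-free livers, 1.27 in WT leucine-free livers and 1.17 in DKO control livers, against 0.26, 0.28 and 0.23 over all genes. Its members had a median pairwise r of 0.58 with each other and -0.43 with genes higher in male liver. Xist was at 0 CPM in replicate 1 and gave an SD of 3.17 in log2 CPM over the 18 DKO leucine-free livers, or 0.28 without that replicate, against 0.41 in WT leucine-free livers. These SDs were not tested.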
